A study of Drosophila melanogaster with 2 samples.

Results

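The genes examined here encode 10 enzymes of glycolysis in Drosophila melanogaster: Pgi, Pfk, Ald1, Tpi, Gapdh1, Gapdh2, Pgk, Pglym78, Eno and Pyk (PyK in the annotation used). They are 10 of the 13968 protein-coding genes annotated on the chromosome arms. They were chosen by pathway, with earlier results of these data known. For each gene, the binding peaks of the transcription factor Sequoia were collected whose summit, the point of strongest signal, lay inside the gene or within 2 kb of either end. The peaks came from ChIP-seq of whole embryos aged 0 to 24 h. The flies carried a transgene of seq, the gene for the zinc finger protein Sequoia, fused to enhanced GFP, and bound chromatin was pulled down with an antibody against GFP. There were 2 biological replicates of this 1 genotype and no second condition. The labels do not say whether the flies kept untagged Sequoia, and no GFP-free sample was analysed here. Embryos of all stages in the 24 h window and all their tissues were pooled, so binding in few cells or stages and weak binding in many cannot be told apart.

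Glycolysis turns glucose into pyruvate. In its first phase, sugar phosphates are rearranged by Pgi, phosphorylated by Pfk and split by Ald1, and Tpi interconverts the products. In its second phase, Gapdh, Pgk, Pglym78, Eno and Pyk oxidise the triose phosphate and yield ATP. In Drosophila embryos the genes of this pathway are known to be raised together in mid-embryogenesis by the estrogen-related receptor ERR, which prepares the larva for growth on sugar.

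A peak was counted as found when it was in the authors' conservative list, made between the replicates. That list holds 4099 peaks on the arms. Its peaks have a score of at least 830, which stands for an irreproducible discovery rate (IDR) of about 0.01, the estimated share of irreproducible peaks among those ranked at least as high. Of the 10 genes, 5 had such a peak: Gapdh1, Gapdh2, Pgk, Eno and Pyk. The same call was made for 27.8% of all protein-coding genes. All 5 lay in the second phase of the pathway, where 5 of 6 genes had a peak, and none of the 4 genes of the first phase had one. No test was made of this split, which was noticed in the values.

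The sequences under the strongest promoter peaks show where in the DNA the signal was centred. They are read on the gene's own strand, 5′ to 3′, from genome Release 6, and reach 100 bp either side of the summit, less any annotated exon. In Gapdh2 the stretch is X:15867892-15868092 (plus strand), upstream of the gene, and in Pyk it is 3R:22368890-22369090 (plus strand), in an intron. In Eno it is 2L:1727881-1728012 (minus strand), the intronic part of the window. In Pgk the summit itself fell in a 5′ untranslated exon, so that only the intron before this exon is shown, 2L:2748793-2748872 (minus strand). Capitals mark the GATA words TGATAA and AGATAA or their reverse complements.
Gapdh2: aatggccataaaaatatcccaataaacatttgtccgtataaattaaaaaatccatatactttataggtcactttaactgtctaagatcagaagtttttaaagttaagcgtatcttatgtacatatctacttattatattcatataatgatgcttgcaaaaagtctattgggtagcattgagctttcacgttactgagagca
Eno: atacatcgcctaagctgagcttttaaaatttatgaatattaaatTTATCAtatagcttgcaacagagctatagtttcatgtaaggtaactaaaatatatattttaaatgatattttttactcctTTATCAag
Pyk: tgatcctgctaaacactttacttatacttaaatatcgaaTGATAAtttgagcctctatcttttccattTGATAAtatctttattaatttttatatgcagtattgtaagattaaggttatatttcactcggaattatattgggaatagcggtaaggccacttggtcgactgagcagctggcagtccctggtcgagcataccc
Pgk: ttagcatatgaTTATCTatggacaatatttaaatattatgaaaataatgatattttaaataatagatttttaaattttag

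In the 50 bp either side of the summit, the GC content was 25.7% at the Gapdh2 promoter, 25.7% at Eno and 27.7% at Pyk, against a median of 35.6% over all conservative peaks. Between 13.5% and 20.2% of conservative peaks had a lower GC content than these. Pgk, at 38.6%, lay close to that median, and Gapdh1, at 51.5%, lay above 83.3% of conservative peaks. This order depended on the window. Within 200 bp of the summit Pgk was the lowest of the promoter peaks at 34.4%, Gapdh2 had 36.4%, and Eno (40.6%) and Pyk (42.9%) were at or above the median of 40.6%.

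Of 11 words searched on both strands in these 50 bp either side, 8 were in none of the 6 member peaks, among them the GAGA factor word GAGAGA (7.42% of all conservative peaks), the hypoxia response core ACGTG (6.93%) and the ERR site TCAAGGTCA (0.0488%). The other words each occurred in 2 member peaks. TATAAA was found at the Gapdh2 promoter and Pyk and in 18.2% of all conservative peaks. A GATA word was found at Eno and Pyk and in 15.3% of them. ACAGTG was found at Pgk and at a second Gapdh2 peak past the end of the gene, and in 7.25% of them. Within 100 bp of the summit the GATA words were in 3 member peaks, the third being Pgk, against 25.8% of all conservative peaks. At that width ACGTG was in 1 member peak, that of the Gapdh2 promoter, against 14.1%. In the 300 bp from 250 bp before to 50 bp after each TSS, 6 of the 10 genes held a GATA word, with 42.3% of all genes, counting every TSS of a gene, and 57.1% of genes with 2 or more TSSs. In the same promoter sequence the E-box CACGTG was in none of the 10 genes. It was in 5.29% of all genes and in 7.84% of those with 2 or more TSSs. ACGTG was in 4 of the 10 (Pgk, Ald1, Gapdh2 and Pgi), with 28.8% and 45.2%. In that order GAGAGA had 3, 17.0% and 32.9%, CAGGTG 1, 12.4% and 21.1%, and TATAAA 6, 51.2% and 60.8%. TAATTA had 5, 24.2% and 32.8%, and ACAGTG 4, 17.8% and 29.0%. TATCGATA (10.2% and 12.9%) and the ERR site (0.215% and 0.487%) were in none of the 10. CAGCTG was in 6 of the 10, in 22.3% of all genes and in 35.0% of those with 2 or more TSSs, while none of the 6 member peaks held it within 50 bp of the summit.

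The oxidation of triose phosphate is carried out by glyceraldehyde phosphate dehydrogenase, which the fly encodes in a pair of genes, and their peaks differed most in height. At Gapdh2 (X:15868145-15869661, plus strand) the promoter peak X:15867840-15868149 reached a signal of 461 in replicate 1 against 388 in replicate 2. Signal is the peak caller's own value and ranks peaks within a list. In the conservative list its signal was 847, rank 35 of 4099, with the summit 153 bp before the TSS. At Gapdh1 (2R:7791901-7793380, minus strand) the peak 2R:7793022-7793411 reached 51.4 in replicate 1 and 31.7 in replicate 2. In the conservative list it had 80.6, rank 3410. Its summit lay in a 5′ untranslated exon, 13 bp after the nearest TSS.

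Both replicates thus put Gapdh2 far above Gapdh1. The replicate 2 value of Gapdh1 is that of a ranked peak with an IDR of 0.827. The signal of the Gapdh2 promoter peak was 8.98 times that of Gapdh1 in replicate 1, 12.2 times in replicate 2 and 10.5 times in the conservative list. No test was run on this pair. Each of the 2 libraries measured both peaks, so the values are paired by library, and 2 pairs are too few for a test. The genes are similar in sequence, but every 31-base word of either promoter peak occurred once on the arms, and the peaks shared no such word. The gene spans shared 10 words of 1450 in Gapdh1 and 1487 in Gapdh2.

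Gapdh2 had a second peak at X:15870844-15871233, with its summit 1378 bp past the end of the gene. Its signal was 97.8 in replicate 1 and 41.4 in replicate 2, and 137 in the conservative list, rank 1612. The TSS nearest to it was that of CG16952, 856 bp away. Replicate 2 alone did not place it past the threshold, with an IDR of 0.0409. The promoter peak was 6.17 times as high in the conservative list.

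Enolase, which forms phosphoenolpyruvate, is encoded by Eno (2L:1724768-1729636, minus strand). Its peak at 2L:1727797-1728027 reached 222 in replicate 1 and 247 in replicate 2. In the conservative list it had 467 and rank 145. Gapdh2 and Eno were the highest members in both replicates, in the same order, and both were at the lower cap of the deposited IDR, 1e-05. The Eno summit was not at the outermost TSS of the gene. It lay 1724 bp inside the gene from there, and 195 bp before the most internal of its 3 annotated TSSs. Replicate 1 and the pooled list also held weaker binding past the 3′ end of Eno, at 49.2 in replicate 1 and 58.2 in the pooled list. Its summit in the pooled list was 182 bp from the TSS of Rim2, and in replicate 2 its IDR was 0.907.

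Pyruvate kinase makes ATP in the last step and is encoded by Pyk (3R:22367536-22372746, plus strand). Its peak at 3R:22368795-22369184 reached 98.5 in replicate 1 and 103 in replicate 2, nearly equal. In the conservative list it had 197 and rank 853. The summit lay in an intron, 292 bp before the downstream of the 2 TSSs and 1454 bp after the upstream one. Replicate 2 split the site into 2 peaks of its own list.

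Phosphoglycerate kinase makes the first ATP of the pathway, and its gene Pgk (2L:2746880-2753068, minus strand) has 5 annotated TSSs. The peak 2L:2748577-2748966 reached 105 in replicate 1 and 72.2 in replicate 2. In the conservative list it had 148 and rank 1421. Its summit was 285 bp before the TSS nearest to the coding exons, and 4296 bp into the gene from the outermost TSS. Pgk stood above Pyk in replicate 1 and below it in replicate 2, so the order of these neighbours was not stable.

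Along the genes, the share of promoter summits upstream of a start site was close to that of conservative promoter peaks in general. In 4 of the 5 genes with a peak, the summit was 153 to 292 bp before the nearest own TSS, and in Gapdh1 it was 13 bp after it. Of 1700 conservative peaks within 500 bp of a protein-coding TSS, 75.7% lay upstream. The range from 153 to 292 bp upstream held 24.8% of them. That range was drawn from the 4 member summits, which lie in it by construction, so this share is no comparison for them. In 4 of the 5 genes the nearest TSS was not the outermost one, as in 48.1% of the 965 genes with 2 or more TSSs and a promoter peak. The gene maps show this for Eno, Pyk and Pgk as a summit deep within the gene.

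**Figure D1:**
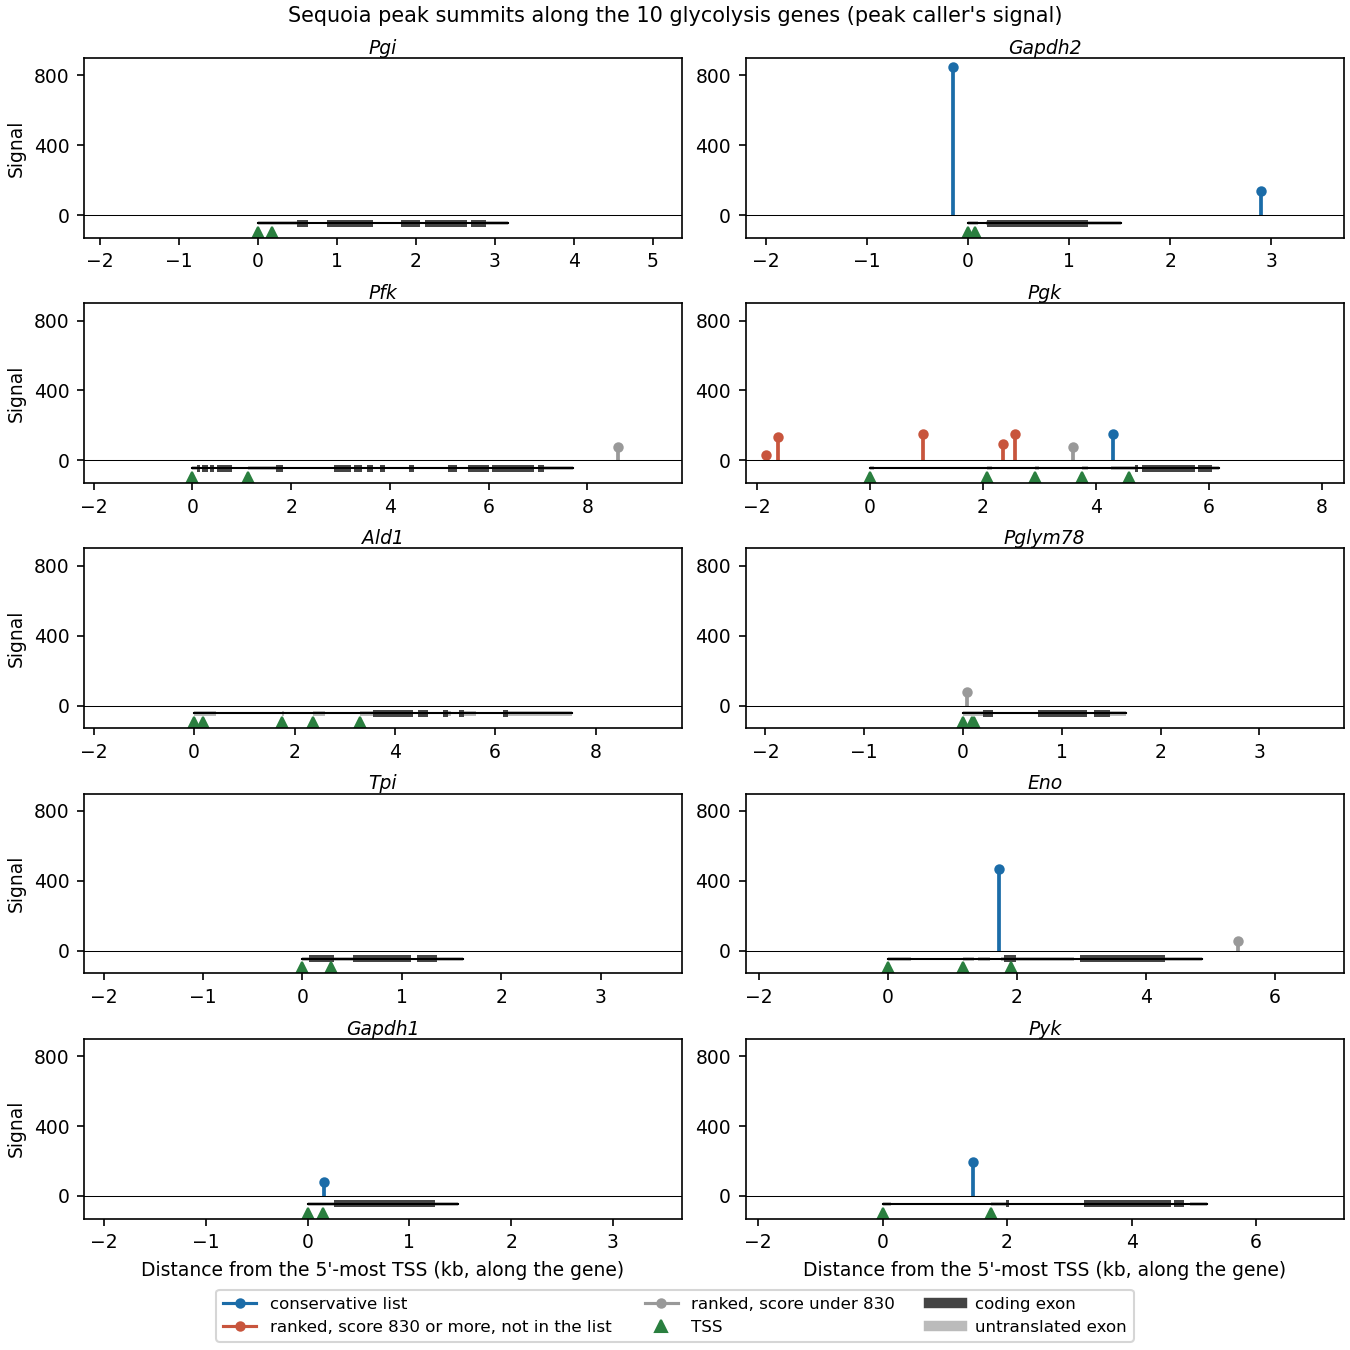
Peak summits along the 10 genes. The x axis gives the distance along the gene from its 5′-most TSS in kb and the y axis the signal in the conservative list or its ranked list. Blue peaks are in the conservative list, orange peaks have a score of 830 or more but are not in it, and grey peaks have a lower score and are drawn where another list holds the site. Black and grey boxes are coding and untranslated exons, and triangles are TSSs. Gapdh2 (847) and Eno (467) stand highest, and the orange peaks occur at Pgk.

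All 10 genes have 2 or more annotated TSSs, as do 3699 of all protein-coding genes, and this bears on how many promoter peaks a gene can have. A summit within 500 bp of any TSS was found for 5 of 10 members and 13.8% of all genes. Among the genes with 2 or more TSSs the share was 26.1%. When the outermost TSS of each gene was used alone, 2 members remained, Gapdh1 and Gapdh2, against 11.4% of all genes. Gene length also bears on the 2 kb window, since a longer gene has a wider one. The median span was 4019.5 bp over the members and 2164.5 bp over all protein-coding genes. Among the 11575 genes no longer than Pfk, the longest member, 22.7% had a peak within 2 kb. That set drops longer genes only and keeps those shorter than every member, so it is not matched to the members in length.

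The lists of single replicates and of the pooled replicates gave similar counts. Within 2 kb, 6 members had a peak in the pooled list (33.2% of all genes), 6 in the list of replicate 1 (27.9%) and 4 in that of replicate 2 (21.1%). At a TSS, the counts were 5 in the pooled list (17.3%), 5 in replicate 1 (14.3%) and 4 in replicate 2 (10.1%). Gapdh2, Pgk, Eno and Pyk were in all 4 lists, at a TSS. Gapdh1 was in the conservative list, with a score of 895, and in that of replicate 1, while its score in the pooled ranked list was 813, under the limit, and replicate 2 gave it an IDR of 0.827.

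Phosphoglycerate mutase, which moves the phosphate group before Eno acts, is encoded by Pglym78 (3R:29148248-29149901, plus strand). Its promoter peak reached 60.7 in replicate 1 and 11.7 in replicate 2 at the same site. It was in the pooled list, with a signal of 79.3 and an IDR of 0.00818, but not in the conservative one, where its IDR was 0.677. Its summit lay 43 bp after the TSS, and the 50 bp either side of it had a GC content of 57.4%. A conservative peak near the gene had its summit 2045 bp away, just outside the 2 kb limit.

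The 4 genes of the first phase had no thresholded peak at a TSS in any of the 4 lists. For Pgi, which converts glucose phosphate to fructose phosphate, the strongest ranked peak within 500 bp of a TSS reached 26.9 in replicate 1 and 30.0 in replicate 2. At Ald1, the aldolase, it was 35.2 in replicate 1 and 21.6 in replicate 2. At Tpi, the isomerase of the triose phosphates, it was 36.4 in replicate 1, and replicate 2 listed no ranked peak. Pfk, which catalyses the committed step, had 22.8 in replicate 1 and none in replicate 2. None of these reached the score limit, and where a replicate listed no peak, its signal is not known to be 0.

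Peaks past the end of Pfk were found in the pooled list and in replicate 1, near the TSS of dmpd. The stronger in the pooled list had a signal of 76.7 and lay 662 bp from that TSS. In replicate 1 its signal was 48.5, and in replicate 2 it was 23.8 with an IDR of 0.735. The nearest conservative summit lay 5825 bp from Pfk, 11140 bp from Ald1, 29764 bp from Pgi and 36255 bp from Tpi.

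**Figure D2:**
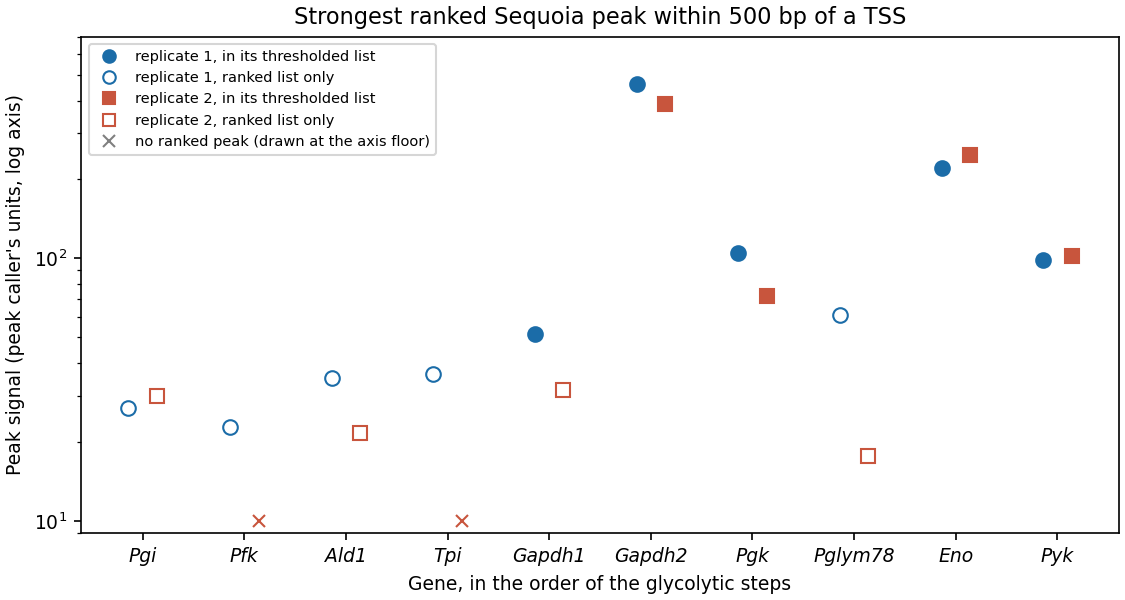
Strongest ranked peak within 500 bp of a TSS of each gene, in replicate 1 (circles) and replicate 2 (squares). The y axis is the peak caller's signal on a log scale, and filled symbols are in that replicate's thresholded list. Gapdh2 (461 and 388), Eno (222 and 247), Pyk (98.5 and 103) and Pgk (105 and 72.2) are filled in both replicates, and the 4 genes of the first phase in neither.

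The ranked lists hold weaker peaks too and allow every gene to be placed. In the conservative ranked list, the strongest peak within 500 bp of a TSS had a median signal of 80.0 over the 10 genes and 29.1 over all genes, with 9 of the 10 above the latter. Over the genes with 2 or more TSSs the median was 48.2, with 7 of the 10 above it. Within 2 kb of the gene the medians were closer, 80.0 over the 10 genes, 50.6 over all genes and 74.6 over those with 2 or more TSSs. By the value at the TSS Gapdh2 ranked 32 among 13968 genes, Eno 125, Pyk 596, Pgk 885, Gapdh1 2052 and Pglym78 2110. Ald1 ranked 3791, Tpi 5676 and Pgi 6540, and Pfk had no ranked peak there. For Pgk the value was that of a peak missing from the conservative list.

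Some ranked peaks past the score limit are not in the list that was thresholded from them. Among the 10 genes these occurred at Pgk. Of 11 ranked peaks with a score of 830 or more within 2 kb of a member, 5 had no overlapping peak in the conservative list. They had signals of 151, 94.4, 152, 131 and 32.5, and the peak that was kept at Pgk had 148. They followed each other without a kept peak between them, from 2L:2750506 to 2L:2754900 by summit. The first pair lay in introns at 359 bp before and 275 bp after a TSS of Pgk. The peak with a signal of 152 was in an intron of Pgk, 310 bp from the TSS of Bacc, and the last pair lay upstream of the gene. In replicate 1 the peak with the highest of these signals had 74.0, and in replicate 2 it also had 74.0.

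The other lists lacked such peaks at Pgk as well, 5 of them in the pooled list, 4 in replicate 1 and 2 in replicate 2. They were not all at the same sites. The peak with 32.5 had an IDR of 0.831 in the pooled ranked list and no ranked peak in replicate 1. The pooled list lacked instead a peak with 78.7, whose conservative score was under the limit. In replicate 2 the sites with 151 and 94.4 had IDRs of 0.315 and 0.716. Over the whole conservative ranked list, 117 of 4216 peaks past the limit were missing, or 2.78%, and 92 of these sat in runs of 2 or more. In all, 0.687% of protein-coding genes had a missing peak within 2 kb. The thresholded lists had a further input whose nature is not given in the sources used here, and its part in the missing peaks was not tested. Putting the peaks back could not change the number of members with a peak, since those near members all lay at Pgk, which already counted. That number stayed at 5, with 28.2% of all genes.

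Signal at the member peaks was compared between replicates as a log2 ratio of replicate 1 to replicate 2, which has meaning only relative to other peaks. The median was 0.39 over the 6 member peaks and 0.21 over the 4074 conservative peaks with both values, whose SD was 0.57. The ratio was 0.25 at the Gapdh2 promoter, -0.16 at Eno, -0.06 at Pyk, 0.53 at Pgk and 0.70 at Gapdh1. It was 1.24 at the peak past the end of Gapdh2, which 5.42% of the conservative peaks reached or passed. Replicate 1 was higher at 4 of 6 member peaks and at 65.2% of all. Of the 6 ratios, that of the distal Gapdh2 peak lay more than 1 SD from the median of all peaks, and the other 5 did not.

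**Figure D3:**
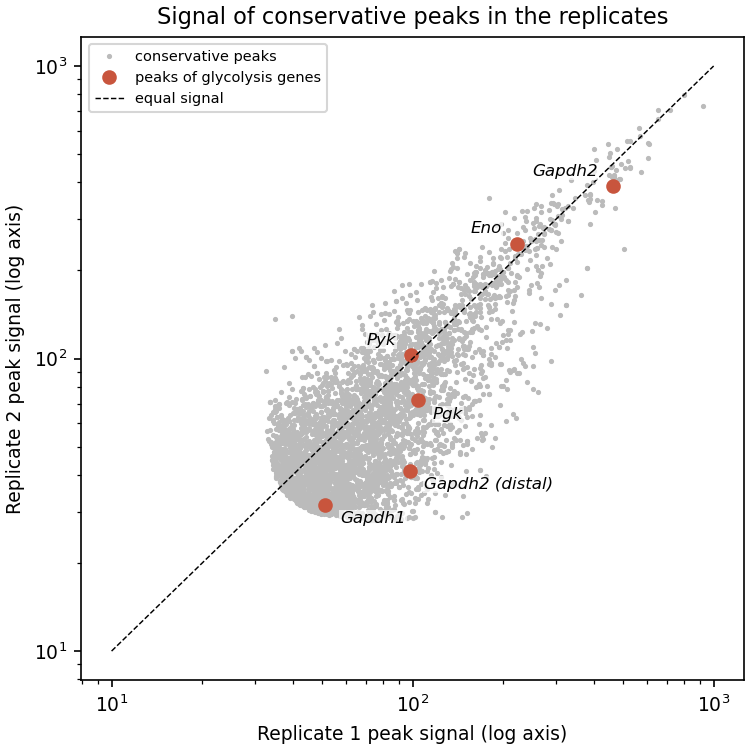
Signal in replicate 1 (x axis) and replicate 2 (y axis), both on log scales, for conservative peaks (grey) and the 6 peaks of glycolysis genes (orange). The dashed line marks equal signal. Gapdh2 (461 and 388) and Eno (222 and 247) lie close to the line, and the distal Gapdh2 peak (97.8 and 41.4) below it.

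The median signal of the 6 member peaks was 172 in the conservative list, against 117 over all its peaks. At these same 6 peaks the median was 102 in replicate 1 and 87.4 in replicate 2. The thresholded list of replicate 1 holds 10 member peaks of its own, with a median of 74.6 against 69.5 over all its peaks, and they include the weak ones past the ends of Eno and Pfk. The list of replicate 2 holds 5, with a median of 103 against 69.6.

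Other genes of sugar metabolism were counted in the same way. Of 73 such genes, 38 had a conservative peak within 2 kb (52.1%) and 22 had one within 500 bp of a TSS (30.1%). Of the 10 enzymes, 5 had one in either window. Over all protein-coding genes the shares were 27.8% and 13.8%, and 26.1% at a TSS over those with 2 or more TSSs. The 73 genes were not matched to these in length or number of TSSs. Among 12 genes of the entry and exit steps, 8 had a peak within 2 kb and 4 at a TSS. The hexokinase gene Hex-A reached 219 in replicate 1 and 164 in replicate 2 at a summit 188 bp before its TSS. Ldh, which turns pyruvate to lactate, had 105 in replicate 1 and 127 in replicate 2 at a summit 151 bp before the TSS. The strongest peak near Hex-C, with 529 in replicate 1 and 553 in replicate 2, lay 134 bp from the TSS of mRpL41, a mitochondrial ribosomal protein gene.

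Of 12 further genes listed as paralogues of the enzymes, 2 had a peak within 2 kb, and none had one at a TSS. The shares of all genes were 27.8% and 13.8%. The peak near CG12229, with 170 in replicate 1 and 241 in replicate 2, lay 89 bp from the TSS of CG32176, and that near CG2964, with 52.7 and 44.1, lay 108 bp from that of G6P. Among 4 gluconeogenesis genes, 2 had a peak within 2 kb and 1 of these, PCB, had one at a TSS. PCB, the pyruvate carboxylase gene, had 79.6 in replicate 1 and 66.8 in replicate 2. The other was fbp, the fructose bisphosphatase gene, with 81.6 and 35.2 at a summit 1483 bp before its nearest TSS. The summit of that PCB peak lay 38 bp from the TSS of asRNA:CR44293 and 360 bp after the nearest TSS of PCB.

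Of 10 trehalose and glycogen genes, 4 had a peak within 2 kb, and the same 4 had one at a TSS. The shares of all genes were 27.8% and 13.8%. The strongest peak within 2 kb of the trehalase gene Treh had 176 in replicate 1 and 177 in replicate 2, and lay nearest to the TSS of CG10527. At GlyP, the glycogen phosphorylase gene, the values were 180 and 150, and at Pgm1, the phosphoglucomutase gene, they were 63.9 and 70.4. Of 7 pentose phosphate genes, 3 had a peak within 2 kb, and the same 3 had one at a TSS. The transketolase gene CG8036 had 310 in replicate 1 and 251 in replicate 2, between Gapdh2 and Eno in the conservative list, with a signal of 573. Zw, the glucose phosphate dehydrogenase gene, had 42.6 and 44.5 at its promoter peak, and a stronger peak within the gene, with 176 and 177, lay nearest to the TSS of the antisense gene asRNA:CR44512. The transaldolase gene Taldo had 40.9 and 43.3.

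Among 18 genes of the TCA cycle, 12 had a peak within 2 kb and 5 at a TSS, beside 27.8% and 13.8% of all genes. Fum1, the fumarase gene, had 179 in replicate 1 and 166 in replicate 2. That summit lay 242 bp from the TSS of ND-ASHI and 280 bp before the nearest TSS of Fum1. Idh3g, a subunit gene of isocitrate dehydrogenase, had 159 and 190. The peak near SdhD, with 159 and 196, lay nearest to the TSS of PTPMT1. Of 10 regulators of these pathways, 7 had a peak within 2 kb and 5 at a TSS, beside the same shares of all genes. The highest values were those of sima, which encodes the hypoxia-inducible factor alpha subunit, with 122 in replicate 1 and 117 in replicate 2. That summit lay in an intron, 1609 bp before the nearest TSS of sima, which is not among the 5 with a peak at a TSS. Hnf4, a nuclear receptor gene, had 76.1 and 90.5, and ERR had 72.3 and 84.5 at a summit nearest to the TSS of Atg18a.

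**Figure D4:**
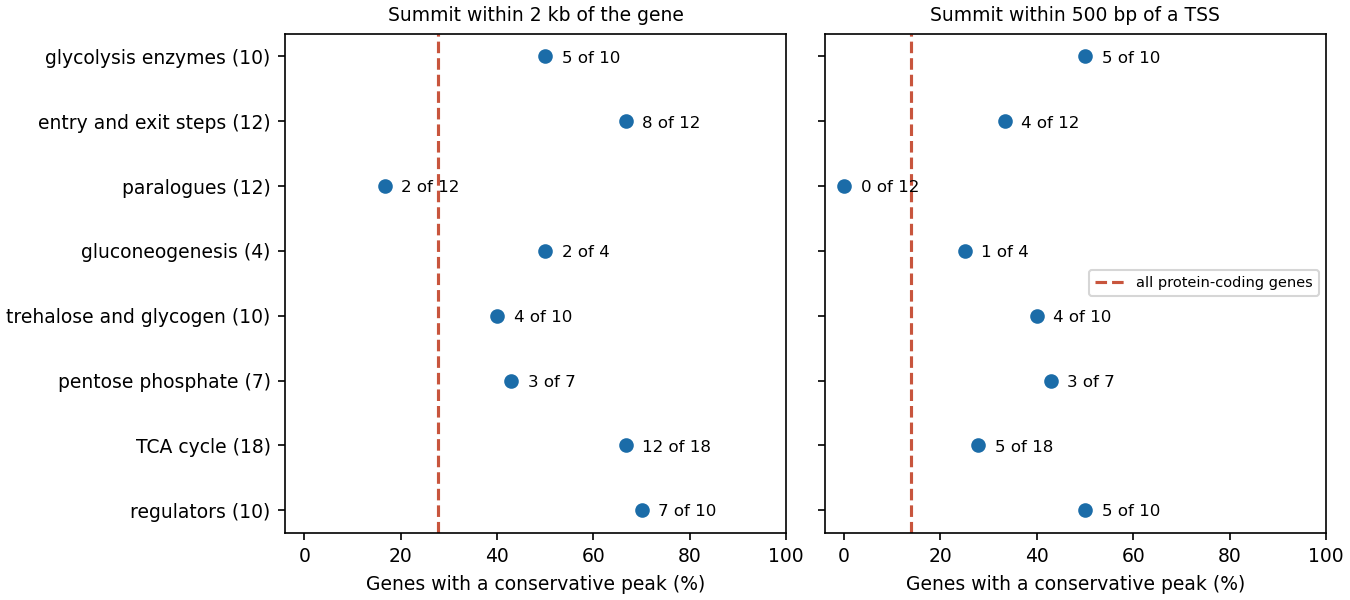
Share of genes with a conservative peak within 2 kb of the gene (left) and within 500 bp of a TSS (right), in percent, by pathway list. Points carry the counts, and the dashed line is the share of all protein-coding genes (27.8% and 13.8%). The 10 glycolysis enzymes lie at 50% in both panels, and the paralogues lie below the line in both.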

How the data were processed

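The authors deposited peak lists on dm6 for each replicate, for pooled replicates and for a conservative set, each as a ranked and a thresholded list. Per the text files deposited with them, each used 1 control alignment. The sources used here name neither the peak caller nor the aligner. The score of each peak is the authors' and rises as the IDR falls. Its signal is the value of the authors' peak caller, with no rescaling between libraries stated. The authors' ranked lists give the global IDR as −log10, capped at 5. The ranked lists have 8 more value columns each, left aside here. The read depth is not known.

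Summits were assigned to genes of Ensembl BDGP6.54, release 115, and RefSeq synonyms were used for 1 member, Pyk. Replicate values are those of the strongest overlapping peak of each replicate's ranked list. Peak assignment was tested on simulated summits. The tools were Python 3.11.15, numpy 2.4.6 and pandas 2.3.3.

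The members, gene lists and motifs were chosen with earlier results of these data known, so the counts are descriptions with no test. Named were all 10 members, the gene with the TSS nearest to each member peak, and up to 3 genes of each other list with the strongest peak within 2 kb. The genes nearest to peaks of those other lists were named after their values were seen.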

Additional observations from a re-analysis of the deposited data

How the results depend on the processing

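Of 47 alternatives, 34 left a count within 1.5 times, or a median within a set limit. Among these are the member counts with missing peaks put back, which could not change. For the median signal the limit was the SD of the replicates' medians, 9.98. For the median log2 ratio it was the SD over all conservative peaks, 0.57, which is a spread between peaks. Counts and signals cannot change sign, so only the log2 ratio could have reversed, and it did not. Members with a peak within 2 kb numbered 4 to 6 under all 10 alternatives run, while the share of all genes moved more. That share was 11.2% in the gene body alone (4 members) and 39.9% with a 5000 bp flank (6 members). At an IDR of 0.001 or less it was 16.9% (4 members). The stricter IDR and the list of replicate 2 alone both lose Gapdh1. Leaving out a replicate gave 4 to 6 members within 2 kb, with 21.1% to 27.9% of all genes. It gave 4 to 5 with a promoter peak (10.1% to 14.3%) and 29 to 39 other pathway genes. Members with a promoter peak were 3 within 200 bp of a TSS (Gapdh1, Gapdh2 and Eno, with 9.58% of all genes). At the 5′-most TSS they were 2 (Gapdh1 and Gapdh2, with 11.4% of all genes). The median signal of member peaks was 197 with a flank of 500 or 1000 bp and at an IDR of 0.001 or less, 143 in the pooled list and 148 with missing peaks put back. It ranged from 74.6 to 103 without one replicate, whose lists have another scale. The missing peaks were 3 at a score limit of 1000. The median log2 ratio was 0.10 to 0.39. A GAGAGA word was in 1 member peak within 200 bp of the summit, that of Pyk. The other pathway genes with a peak were 18 in the gene body alone (11.2% of all genes) and 23 at an IDR of 0.001 or less (16.9%). The cause of these moves was not tested. Narrower windows and a stricter limit cannot admit more peaks, so counts under them could not rise. No comparison of groups, paired or not, was possible because the series has 1 group. The unknown depth sets the limit: a gene with no listed peak is not shown to be unbound.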
